A study of Mus musculus with 27 samples.

Results

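The genes described here serve the endoplasmic reticulum (ER), the compartment in which secreted proteins are made and folded: chaperones, disulfide enzymes, degradation factors, stress sensors, and the channel and coat proteins through which secretory proteins enter and leave. They were listed by name and by role, with earlier results of these data known, and all 43 were found as 1 row each among the 43346 genes of the table. By role they comprised 9 genes of the Hsp70 and Hsp90 chaperone cycle, 6 disulfide and lectin folding factors, 8 genes of ER-associated degradation, 7 translocon subunits, 4 signal peptidase subunits, 3 export genes, 3 stress sensors and 3 transcription factors. The tissue was the whole lacrimal gland of wild-type female BALB/c mice, aged 8 to 10 weeks by the sample labels (the study's methods give a somewhat older range). Uninjured glands (day 0) were compared with glands taken daily from day 1 to day 5, at day 7 or at day 14 after intraglandular injection of 1 µg interleukin-1α (IL-1α), an inflammatory cytokine, and with glands taken 14 days after injection of saline, the vehicle. Each group had 3 mice, and 26 of 27 libraries had a column. As the saline libraries were from day 14 only, the cytokine and the injection itself cannot be told apart from day 1 to day 7.

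The acinar cells of the gland secrete tear proteins and hold a large ER. Proteins enter it through the Sec61 channel, signal peptidase removes their signal peptides, chaperones and disulfide isomerases fold them, and COPII coats carry them on to the Golgi, while molecules that fail to fold are returned to the cytosol and degraded. When unfolded protein builds up, the sensors Ern1 (IRE1α), Atf6 and Eif2ak3 (PERK) start the unfolded protein response, in which cleaved ATF6 and spliced XBP1 raise transcription of chaperone and degradation genes. Gene expression as measured here shows transcript levels only, not splicing of Xbp1, cleavage of ATF6 or phosphorylation of PERK.

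Values were counts scaled per library by the authors so that the median gene was level, and the gene tests used limma on log2(value + 1) with Benjamini-Hochberg adjustment over 13762 genes. A gene was called lower or higher at an adjusted p of at most 0.05 with at least a 2-fold change, and 23 libraries entered the tests. The left-out libraries were day 2 replicate 3, day 4 replicate 1 and day 7 replicate 1, so that day 7 was a single mouse. The study excluded libraries that clustered apart, but its text does not name them, and these were read from its cluster plot, so the match is not certain. With all 26 libraries the members' counts were the same, 24 lower at day 1, 2 lower at day 2 and 0 from day 3 on, where 4.98% and 1.58% of all genes were lower on the first days. All 43 genes passed the filter on low values. Libraries held an estimated 9.5 to 13.1 M counts, and the lowest member value in any library stood for about 69 counts. Acinar markers were present in every library, but their summed level was 153500 to 188100 at day 0 and 46350 to 51690 at day 1. The largest part of the day 0 sum was Pnliprp1, with means of 73860 at day 0 and 2776 at day 1. Other acinar markers changed less, and Pigr alone had a higher mean at day 1 (12180 and 15330). Summed neutrophil markers were 49.2 to 61.1 at day 0 and 2358 to 2972 at day 1, and macrophage markers 839 to 1483 and 2774 to 3799. Skeletal muscle markers summed to at most 643 at day 0 and to between 2018 and 8269 at day 2. In whole tissue, fewer acinar cells and less RNA per acinar cell cannot be told apart, and the part that these shifts in cell types had in the members' values was not tested.

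Some of these genes share a short promoter motif, the ER stress response element (ERSE), which is bound by NF-Y together with ATF6 or XBP1. Promoters from RefSeq (build GRCm38.p6) matched 34 of the 43 genes, and the 250 bases before the start were searched on both strands for CCAAT, then any 9 bases, then CCACG. The motif was found in 9 of the 34 genes (26.5%): Hspa5, Hsp90b1, Dnajc3, Creld2, Pdia6, Calr, Canx, Derl3 and Syvn1. It was found in 35 of 27025 genes in the whole promoter table (0.13%). A related element, ATTGG, 1 base and CCACG, was found in Herpud1 and in 0.037% of all genes. Another element searched for, TGACGTGG, was found in Sec24d and in 0.603% of all genes. The stretches printed here are from the genes the results turn on, with 12 bases on either side, 5′ to 3′ on the strand of the gene. Capitals mark the outer blocks of the motif, which read CGTGG and ATTGG where it lies on the opposite strand, and the whole element in Herpud1.
Hspa5, chr2:34772013-34772055, plus strand: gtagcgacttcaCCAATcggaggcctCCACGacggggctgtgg
Dnajc3, chr14:118937815-118937857, plus strand: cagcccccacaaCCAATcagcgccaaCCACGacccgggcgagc
Creld2, chr15:88819508-88819550, plus strand: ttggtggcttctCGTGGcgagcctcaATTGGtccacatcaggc
Calr, chr8:84847063-84847105, minus strand: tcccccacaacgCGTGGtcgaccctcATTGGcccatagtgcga
Derl3, chr10:75893230-75893272, plus strand: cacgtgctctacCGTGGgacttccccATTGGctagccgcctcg
Syvn1, chr19:6046520-6046562, plus strand: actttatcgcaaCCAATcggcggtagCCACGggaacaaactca
Herpud1, chr8:94386365-94386399, plus strand: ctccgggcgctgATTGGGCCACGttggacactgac

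More than the background share of the ER genes fell at day 1 under the scaling that the authors used. All 43 log2 fold changes against day 0 were negative, with a median of -1.09 beside 0.03 over all tested genes, and 24 genes were called lower where 5.09% of all tested genes were. No member was called higher by limma, where 11.3% of all genes were, and at an unadjusted p under 0.05 there were 42 lower and 0 higher. The share of all genes at an unadjusted p under 0.05 was not counted for any comparison. Counts at that limit, here and below, therefore only describe the members. In 39 of the 43 genes every day 1 library lay below every day 0 library, against 24.4% of all tested genes. The exceptions were Pdia4, Ern1, Sec61g and Syvn1. By role, the genes called lower were 6 of 9 chaperones, 1 of 6 disulfide and lectin factors, 4 of 8 degradation genes, 5 of 7 translocon subunits, 3 of 4 signal peptidase subunits, 2 of 3 export genes, 3 of 3 transcription factors and 0 of 3 sensors. Median log2 changes by role ran from -1.41 for export and -1.27 for chaperones to -0.66 for disulfide and lectin factors and -0.44 for sensors.

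**Figure D1:**
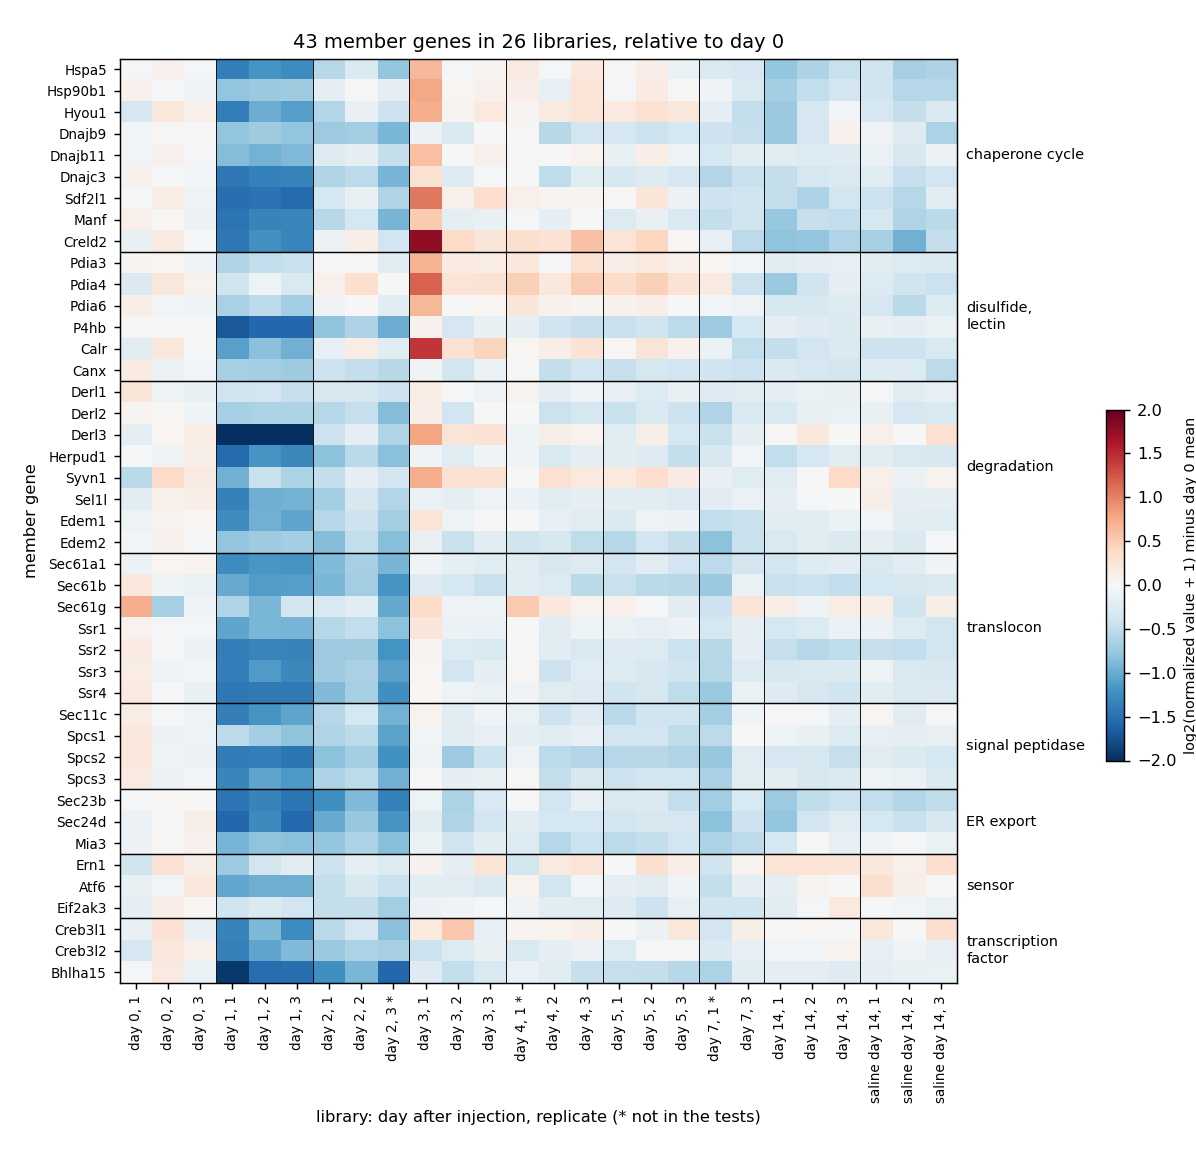
Heat map of log2(normalized value + 1) minus the day 0 mean for the 43 genes (rows, by role) in the 26 libraries (columns, by day and replicate; an asterisk marks libraries left out of the tests). The 3 day 1 columns are blue in nearly all rows, and day 3 replicate 1 is red in most chaperone and folding rows, but not in Dnajb9 and Canx.

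At day 2 the median log2 change was -0.49, and 2 genes were called lower, Sec23b and Bhlha15, against 1.14% of all genes. No member was called higher at day 2 by limma (11% of all genes were), although 30 had an unadjusted p under 0.05, all of them lower. From day 3 on, limma called no member in either direction. The share of all tested genes called lower and higher on day 3 was 0.574% and 2.57%, on day 4 was 0.421% and 6.97%, and on day 5 was 0.589% and 9.8%. Unadjusted p under 0.05 was reached by 9 members lower and 7 higher on day 3, and by 19 and 22 lower and 0 higher on days 4 and 5. The call of Bhlha15 at day 2 was lost without day 0 replicate 2, and both calls were lost without day 2 replicate 1, so that the count was then 1 and 0. By role, the median for disulfide and lectin factors was -0.02 at day 2 and 0.29 at day 3, and for chaperones -0.38 and 0.23, while translocon subunits stood at -0.73 and -0.17, and export genes at -0.88 and -0.35. The day 3 medians rested in part on replicate 1: without it they were 0.09 for disulfide and lectin factors and 0.04 for chaperones, beside -0.22 for translocon subunits and -0.47 for export genes. Differences between roles were not tested. With the adjusted p alone, and no limit on fold, members lower numbered 42, 29, 3, 12 and 20 from day 1 to day 5, where 20.4%, 13.7%, 3.88%, 8.31% and 12.9% of all genes were lower, and 2 were higher at day 3 (5.4% of all genes).

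Sdf2l1 encodes a subunit of the chaperone complex that works with the Hsp70 protein BiP. Its levels were 595, 676 and 571 at day 0, against 214, 218 and 211 at day 1 and 480.3 and 555 at day 2 (404 in the untested library), and it fell at day 1 by log2 -1.51 ± 0.16 (SE; limma adjusted p = 2.28e-07). The day 1 libraries were close to each other and far below day 0, and the day 2 libraries lay just below the day 0 range. Dnajc3, an ER co-chaperone with a DnaJ domain, had levels of 5116, 4762 and 4651 at day 0, against 1798, 1889 and 1913 at day 1 and 3199 and 3377 at day 2, with a day 1 change of -1.37 ± 0.11 (adjusted p = 4.13e-09). At day 5 it was still below every day 0 library, at 3862, 4048 and 3841, with a change of -0.31 ± 0.11 that is below a 2-fold difference. Hspa5 (BiP), the central Hsp70 chaperone of the ER, went from 7936, 8670.1 and 7975 at day 0 to 3185, 3631 and 3409 at day 1 (-1.27 ± 0.14, adjusted p = 4.61e-07). Its day 2 levels of 5546 and 6692 lay between those groups without overlapping either.

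Creld2, an ER resident protein with disulfide exchange activity, was listed here with the chaperone cycle and enters the values of that role. Creld2 stood at 502, 630.0 and 547 at day 0 compared with 206, 239 and 223 at day 1. This was a fall of -1.32 ± 0.25 on the log2 scale (limma adjusted p = 2.13e-04). At day 2 it was 515 and 610.5, inside the day 0 range, and at day 3 it was 1909.5, 726 and 659, above all day 0 libraries. The day 3 change of 0.80 ± 0.25 had an adjusted p of 0.0493 but was under 2-fold, and day 3 replicate 1 decided its size, as it was 2.76 times the mean of the other day 3 libraries. Without that library the change was 0.31, and without day 3 replicate 2 or replicate 3 it was 1.01 or 1.08 and was called. Dnajb9, a DnaJ co-chaperone that restrains Ern1, followed another course: 716, 754 and 754 at day 0, against 428, 453 and 429 at day 1 and 448 and 459 at day 2. Its day 1 and day 2 libraries overlapped in range and lay below all of day 0, with changes of -0.76 ± 0.15 and -0.71 ± 0.17 (adjusted p = 2.87e-04 and 0.00273), both under 2-fold. The other chaperones, Hsp90b1, Hyou1, Dnajb11 and Manf, had day 1 changes from -1.37 to -0.74.

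**Figure D2:**
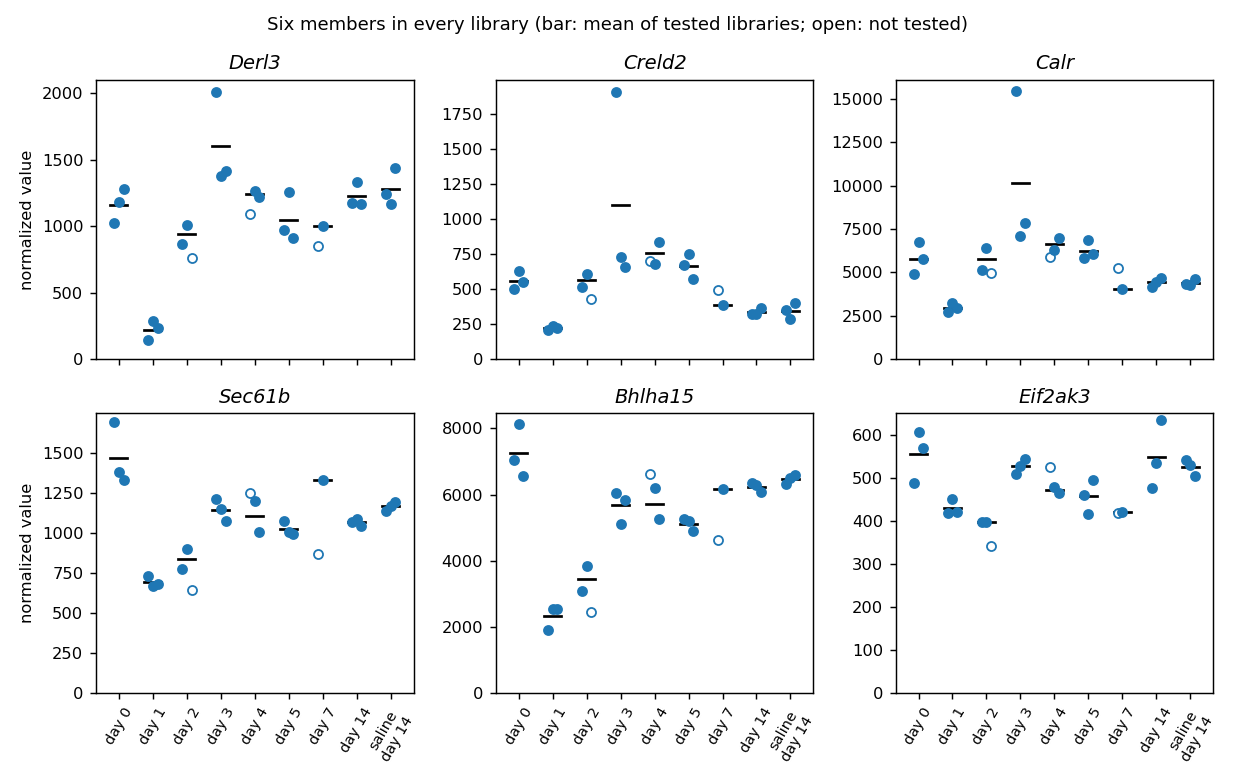
Normalized value in every library for Derl3, Creld2, Calr, Sec61b, Bhlha15 and Eif2ak3 by day (bars, group means of tested libraries; open points, libraries left out of the tests; axes start at 0). Derl3 is lowest at day 1 and back near day 0 at day 2, Sec61b and Bhlha15 are still low at day 2, and day 3 replicate 1 stands above the other libraries for Creld2 and Calr.

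Among disulfide and lectin factors, P4hb had the highest level of all 43 genes at day 0 per kilobase of exon, at 7147, against 54.4 for the lowest, Sec61g. P4hb encodes protein disulfide isomerase, which is also a subunit of the collagen prolyl hydroxylase. Its values were 20808, 20404 and 20129 at day 0, against 6364, 6879.8 and 6902 at day 1 and 11760.1 and 13349.8 at day 2, and it fell at day 1 by log2 -1.61 ± 0.10 (limma adjusted p = 2.60e-10). The groups did not overlap, and at day 5 it was still lower, at 14968, 15536 and 14276 (-0.45 ± 0.10, adjusted p = 0.00268, under 2-fold). Calr, the lectin chaperone calreticulin, had day 0 levels of 4879.5, 6741 and 5748 and day 1 levels of 2699, 3218 and 2954, a change of -0.96 ± 0.19 (adjusted p = 3.71e-04) just short of 2-fold. It was back in the day 0 range at day 2, with 5119.6 and 6393, and reached 15463, 7096 and 7817 at day 3 (0.73 ± 0.19, adjusted p = 0.0227). All 3 day 3 libraries lay above all day 0 libraries, and replicate 1 was 2.07 times the mean of the other pair. Pdia4, a further disulfide isomerase, had the smallest day 1 change of the 43 genes, -0.27 ± 0.19 (adjusted p = 0.26), with 479, 586 and 509.6 at day 1 inside or below a day 0 range of 516, 736 and 664.

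Derl3 changed most of the 43 genes. It is the member of the derlin family, which forms part of the channel for misfolded proteins, that is found mainly in secretory tissues. Its levels were 1023, 1183 and 1280.4 at day 0, against 143, 284 and 237 at day 1, then 867 and 1012 at day 2 and finally 2009.9, 1379.7 and 1416 at day 3. The day 1 libraries were at a small part of the day 0 level, and the day 2 libraries lay just below the day 0 range. The fall at day 1 was log2 -2.44 ± 0.19 (limma adjusted p = 2.59e-09), a mean of 19.0% of the day 0 level, and the rise from day 1 to day 2 was 2.13 ± 0.21 (adjusted p = 3.78e-06). The paralogs Derl1 and Derl2 had day 1 changes of -0.42 ± 0.09 and -0.65 ± 0.10. The difference between Derl3 and Derl1 within each library, which no scaling can alter, was -2.61, -1.64 and -1.82 on the log2 scale at day 1 relative to the day 0 mean, against -0.43 to 0.29 at day 0. It lay between -0.20 and 0.65 in all later libraries, so the day 1 libraries stood apart from all others.

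Herpud1, a membrane protein that helps to assemble the degradation complex, had levels of 2759.9, 2674 and 3087 at day 0, against 979.6, 1252 and 1163 at day 1 and 1597 and 1943 at day 2. It fell at day 1 (-1.33 ± 0.10, limma adjusted p = 3.20e-09), and day 2 lay between day 1 and day 0 without overlap (-0.69 ± 0.12, adjusted p = 1.47e-04, under 2-fold). Edem2, which starts the mannose trimming that marks glycoproteins for degradation, held 1379, 1525 and 1410.4 at day 0, against 832, 882 and 897 at day 1 and 788 and 1018 at day 2. The day 1 and day 2 groups overlapped, with changes of -0.72 ± 0.10 and -0.68 ± 0.11. Syvn1, the ubiquitin ligase of the complex, varied most at day 0 among degradation genes, at 482, 914 and 786, and overlapped with day 1, at 362, 515 and 451. Its partner Sel1l and the mannosidase-like Edem1 were called lower at day 1, at -1.09 ± 0.12 and -1.09 ± 0.10.

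Among translocon subunits all but Ssr1 and Sec61g were called lower at day 1. Ssr4, of the translocon-associated protein complex, had 2107, 1802 and 1661 at day 0, against 685, 693 and 694 at day 1 and 999 and 1163 at day 2, and fell at day 1 by log2 -1.42 ± 0.09 (limma adjusted p = 1.42e-10). Ssr2, of the same complex, had 1623, 1413 and 1343 at day 0, against 559, 579 and 575 at day 1 and 874 and 885 at day 2, with a day 1 change of -1.35 ± 0.09 (adjusted p = 4.87e-10). In both genes the 3 groups were fully separate and in the order day 1, day 2, day 0. Sec61b, a small subunit of the channel, had 1697, 1383 and 1329.8 at day 0, against 729, 671 and 679 at day 1, then 778 and 903 at day 2 and finally 1216, 1151 and 1076 at day 3. It fell at day 1 (-1.08 ± 0.09, adjusted p = 1.05e-08) and was still below every day 0 library at day 3 and at day 5 (-0.51 ± 0.09, adjusted p = 4.64e-04, under 2-fold). Sec61a1, the pore subunit, and Ssr3 were called lower at day 1 too, at -1.20 ± 0.09 and -1.26 ± 0.10. The least abundant subunit, Sec61g, ranged from 78.3 to 206 at day 0 alone and was not called.

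Of the signal peptidase genes all but Spcs1 were called lower at day 1. Spcs2, an accessory subunit, held 5442, 4425 and 4367 at day 0, against 1785, 1836 and 1717 at day 1 and 2668 and 2932 at day 2, with a fall of log2 -1.41 ± 0.11 at day 1 (limma adjusted p = 5.45e-09). It was also below all day 0 libraries at day 5, at 3178, 3206 and 3101 (-0.58 ± 0.11, adjusted p = 0.00101, under 2-fold). Sec11c, a catalytic subunit, went from 2681, 2368 and 2252 to 945, 1066 and 1172 at day 1 (-1.20 ± 0.10, adjusted p = 1.03e-08). Spcs3, another subunit of the enzyme, went from 2167, 1765 and 1848 to 773, 920.0 and 868 (-1.17 ± 0.09, adjusted p = 2.41e-09) and stood at 1248 and 1342 at day 2. None of these genes had a day 1 library inside its day 0 range.

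Export genes had the lowest median of the roles at day 1 and day 2. Sec24d, a cargo-binding subunit of the COPII coat, had 966, 1036 and 1134 at day 0, against 351, 433 and 356 at day 1 and 518 and 617 at day 2 (-1.46 ± 0.12 at day 1, limma adjusted p = 7.18e-09). Its partner in the inner coat, Sec23b, had 1505, 1552 and 1519.6 at day 0, against 561, 604 and 556 at day 1 and 653 and 826 at day 2 (596 in the untested library). Sec23b fell at day 1 (-1.41 ± 0.12, adjusted p = 5.71e-09) and at day 2 (-1.05 ± 0.13, adjusted p = 4.16e-06), and its day 2 level stayed far below the narrow day 0 range. Without day 2 replicate 1 the day 2 change of Sec23b was -0.88, under 2-fold. Mia3, a receptor that loads collagens and other large cargo at ER exit sites, was not called at day 1 (-0.85 ± 0.09).

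The sensors had the smallest median change of the roles at day 1. Atf6 had 507, 541 and 653 at day 0 compared with 274, 286 and 286 at day 1, a change of -0.996 ± 0.11 (limma adjusted p = 2.10e-07) that lay at the 2-fold limit and was called when day 0 replicate 1 or 2, or day 1 replicate 2 or 3, was left out (-1.07, -1.03, -1.01 and -1.01). Its groups did not overlap. Ern1 had 535, 858 and 760.5 at day 0 compared with 426, 545 and 605 at day 1 (-0.44 ± 0.15, adjusted p = 0.025), with overlapping ranges. Eif2ak3 had 488, 607 and 571 at day 0, against 418, 450.2 and 422 at day 1 and 398 and 399 at day 2, with changes of -0.36 ± 0.10 and -0.47 ± 0.11 (adjusted p = 0.00517 and 0.0026). It was below all day 0 libraries on both days, and its day 2 libraries were the lower ones.

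The transcription factors were all called lower at day 1. Bhlha15 (Mist1), which maintains the secretory architecture of acinar cells and ranked behind P4hb alone in level per kilobase at day 0, had 7048, 8142 and 6566 at day 0, against 1901, 2525 and 2536 at day 1 and 3088 and 3824 at day 2. It fell by log2 -1.65 ± 0.11 at day 1 (limma adjusted p = 7.36e-10) and -1.07 ± 0.13 at day 2 (adjusted p = 3.19e-06), and at day 5 it was at 5247, 5215 and 4891, below all day 0 libraries. The day 2 change was -0.98 without day 0 replicate 2 and -0.92 without day 2 replicate 1. Creb3l1, an ATF6-like membrane-bound factor of secretory cells, went from 318, 431 and 316 to 139, 188 and 146 (-1.16 ± 0.16, adjusted p = 4.14e-06). Its relative Creb3l2, which drives COPII genes in cartilage, went from 746, 1108 and 1013 to 369.8, 455 and 511 at day 1 (-1.09 ± 0.13, adjusted p = 6.00e-07) and stood at 561 and 606 at day 2. The groups were separate in both genes, and the Creb3l2 call was lost without day 0 replicate 2 (-0.98) or day 1 replicate 1 (-0.97).

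The direction of these changes depended on the scaling. Libraries scaled to their column totals gave a median over all tested genes of 1.18, 0.90, 0.69, 0.73 and 0.78 on days 1 to 5 on the log2 scale, and of 0.23 on days 7 and 14, instead of close to 0. The top 10 genes held 51.3% to 75.3% of each total. On that scale the ER genes had a day 1 median of 0.10, below the median gene, with 17 negative and 26 positive values. Derl3 alone was called lower (-1.26, beside 0.719% of all genes), and no member was called higher where 60.5% of all genes were. Every day 1 library lay below every day 0 library in 5 members on that scale, against 1.37% of all tested genes. In 15 members every day 1 library lay above every day 0 library, against 83.6% of all tested genes. Bhlha15 (-0.47), P4hb (-0.42), Sdf2l1 (-0.33) and Sec24d (-0.28) kept a negative sign without a call, while Calr (0.22), Ern1 (0.75) and Eif2ak3 (0.82) turned positive. Read relative to the median gene, the members' day 1 median was lower on either scale, but this was fixed in advance. A change of scaling shifts all genes of a library nearly alike, so the totals scale gives no separate support.

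**Figure D3:**
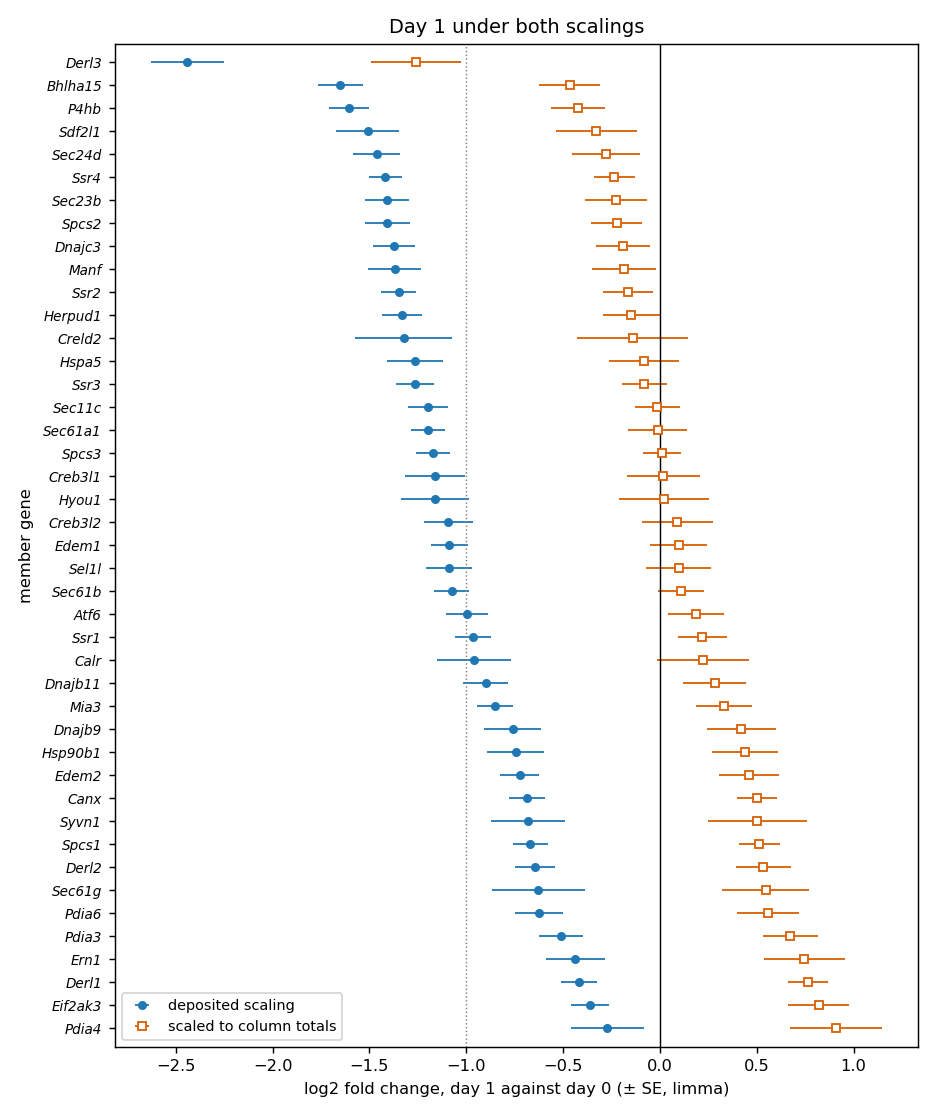
Log2 fold change at day 1 against day 0 with its SE from limma for each of the 43 genes, under the deposited scaling (filled circles) and with libraries scaled to column totals (open squares); the dotted line marks a 2-fold fall. All circles lie below 0, the squares lie on both sides of it, and Derl3 is lowest in both.

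With totals scaling the later days had members called higher. These were Pdia4 at day 2 (40.4% of all genes were called), 8 genes at day 3 (20.7%), Creld2 and Pdia4 at day 4 (27.3%), and Hyou1, Creld2, Pdia4 and Syvn1 at day 5 (32.4%). The 8 genes of day 3 were Hyou1, Sdf2l1, Creld2, Pdia3, Pdia4, Calr, Derl3 and Syvn1, and all 43 log2 values were above 0 on that scale. Without day 3 replicate 1 only Calr was called, so the count of 8 became 1. At days 2 to 5 the members called lay below the background share in each case.

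Change after day 1 was also tested directly between days. From day 1 to day 2, limma called 3 genes higher, Derl3 (2.13 ± 0.21, adjusted p = 3.78e-06), Creld2 (1.33 ± 0.28, adjusted p = 0.00502) and Sdf2l1 (1.26 ± 0.18, adjusted p = 2.55e-04), where 2.02% of all genes rose and 0.632% fell. With the adjusted p alone 28 were higher (5.04% of all genes). No member was called lower, 1 value was negative (Eif2ak3), and an unadjusted p under 0.05 was reached by 33 members, all upward. The count was 5 without day 2 replicate 1, with Manf and Calr added. With totals scaling, Creld2 and Derl3 were called, where 1.48% of all genes were. From day 1 to day 5, 16 members were called higher and 0 lower by limma (5.88% and 5.12% of all genes; 42 upward and 0 downward at an unadjusted p under 0.05). With the adjusted p alone 37 were higher (16.6%). The 16 were Hspa5, Hyou1, Dnajc3, Sdf2l1, Manf, Creld2, P4hb, Calr, Derl3, Herpud1, Ssr2, Ssr4, Sec23b, Sec24d, Creb3l1 and Bhlha15. With totals scaling the count was 4 (3.55% of all genes), made up of Hyou1, Sdf2l1, Creld2 and Derl3.

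A difference between roles within a library does not depend on the scaling. The mean log2 level of the 9 chaperone genes minus that of the 7 translocon subunits, set to 0 at the day 0 mean, was -0.24, 0.20 and 0.04 at day 0 and -0.07, 0.03 and -0.05 at day 1. Day 2 gave 0.28 and 0.34 (0.44 in the untested library), day 3 gave 0.65, 0.20 and 0.31, day 4 gave 0.11 and 0.34, and day 5 gave 0.19, 0.33 and 0.25. The day 1 libraries lay inside the day 0 range, and from day 2 to day 5 all libraries lay above 0, although several overlapped with the highest day 0 library. At day 14 the difference was -0.33, -0.15 and -0.05 after IL-1α and -0.14, -0.21 and -0.20 after saline. The disulfide and lectin factors lay above the translocon already at day 1: their mean minus that of the translocon was -0.22, 0.18 and 0.04 at day 0 and 0.31, 0.44 and 0.31 at day 1, all above day 0. It was 0.49 in both tested libraries of day 2, between 0.13 and 0.61 from day 3 to day 5 and between -0.10 and 0.004 at day 14. The same measure for Creld2 against Sec61b, a pair chosen after their values were seen, was between -0.37 and 0.26 at day 0, -0.43, -0.095 and -0.21 at day 1, between 0.55 and 2.04 in all libraries of days 2 to 5, and between -0.64 and -0.12 in all day 14 libraries. At day 7 the tested and the untested library had opposite signs on each measure. Chaperones minus translocon gave -0.25 and 0.23, and disulfide and lectin factors minus translocon gave -0.16 and 0.37. Creld2 against Sec61b gave -0.39 and 0.58. These values are a description and were not tested.

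**Figure D4:**
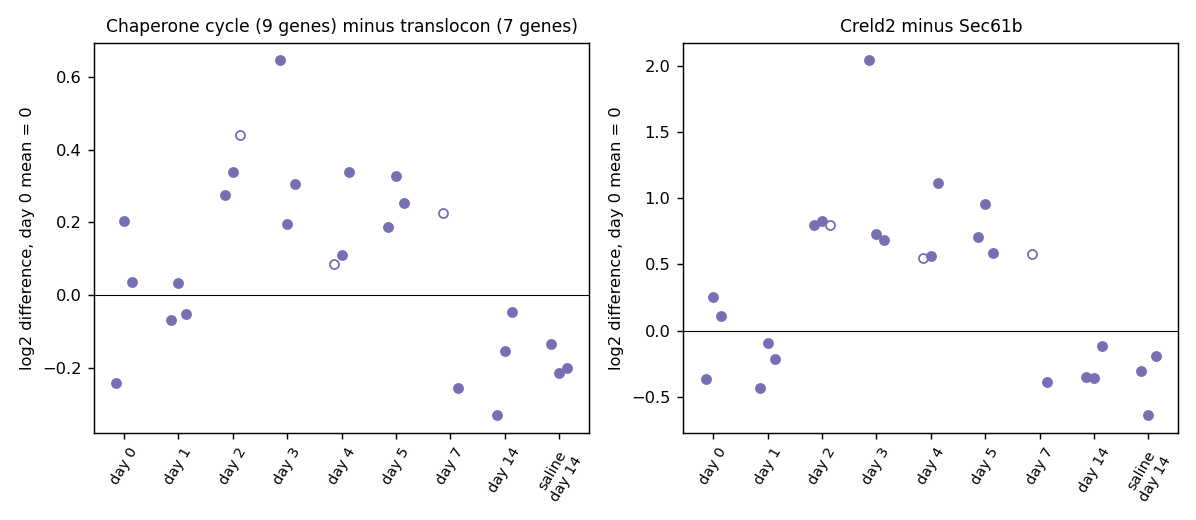
Left, mean log2 level of 9 chaperone genes minus that of 7 translocon subunits in each library; right, Creld2 minus Sec61b, both set to 0 at the day 0 mean (open points, libraries left out of the tests). At day 1 the role difference is inside the day 0 range and the gene difference is below 0. Both are above 0 from day 2 to day 5 and below 0 at day 14 in both IL-1α and saline glands. At day 7 both are below 0 in the tested library and above 0 in the untested library.

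Genes with the ERSE and those without it had similar changes at day 1, with medians of -0.96 over 9 genes and -1.08 over 25. Afterwards the median with the element was -0.31, 0.30, 0.10 and 0.06 on days 2 to 5, and without it -0.68, -0.13, -0.25 and -0.33. Of the genes with the element 7 of 9 were above day 0 at day 3, against 8 of 25 without it. Without day 3 replicate 1 the day 3 medians were 0.065 and -0.16, with 7 of 9 and 5 of 25 genes above day 0. From day 1 to day 2 the medians were 0.82 and 0.49. The ranges of the groups overlapped on every day, and Canx, which holds the element, had a negative change on each day. A further 9 tested genes outside the members carried the element. Their medians against day 0 were -0.25, 0.13 and 0.26 on days 1 to 3, and the median from day 1 to day 2 was 0.27. All members with the element were chaperone, folding or degradation genes. The matched translocon, signal peptidase, export, sensor and transcription factor genes were all without it. The split by element is thus also in part a split by role, and the element was not tested apart from role. This is a description over genes chosen by name, and 9 members have no promoter entry. Herpud1 and Sec24d were counted as without the ERSE, although they hold the other elements named above.

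**Figure D5:**
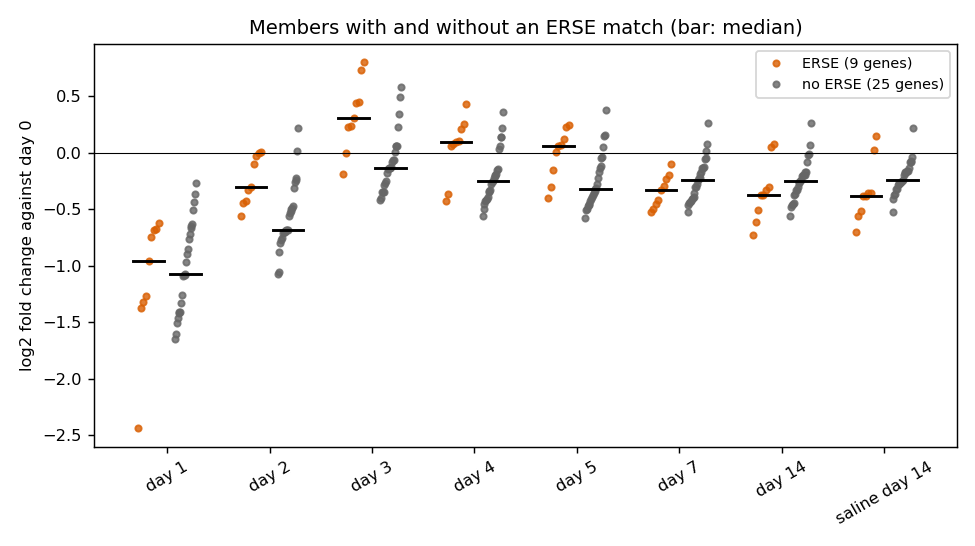
Log2 fold change against day 0 under the deposited scaling for members with an ERSE match (9 genes) and without one (25 genes), by day; each point is a gene and the bar is the median. The medians are close at day 1, and those of genes with the element are higher from day 2 to day 5, at day 3 by less without replicate 1. Genes with the element are all of the chaperone, folding and degradation roles.

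A single library, day 3 replicate 1, carried the highest levels. In 18 of the 43 genes it was the highest of all 26 libraries, where 4.88% of all tested genes were. Hspa5 was at 12900.3, 7984 and 8493 in the 3 day 3 libraries, Sdf2l1 at 1272, 654 and 774 and Pdia4 at 1432, 760.5 and 769, each with replicate 1 first. The ratio of replicate 1 to the mean of the others was above 1.5 for Hyou1, Hspa5, Pdia6, Manf, Hsp90b1, Sdf2l1, Pdia4, Calr and Creld2, chaperones and folding enzymes throughout. Export, sensor and transcription factor genes differed less, for example Bhlha15 with 6057, 5113 and 5848 and Eif2ak3 with 509, 528 and 544. The salivary marker Bpifa2 also varied widely between these libraries, at 40.0, 1232016 and 23799, but was lowest in replicate 1.

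At day 7, in the 1 library tested, no member was called by limma, where 0.0727% of all genes were lower and 0.116% higher, and 11 members had an unadjusted p under 0.05, all lower. At day 14 the median was -0.28 after IL-1α and -0.25 after saline, each with 38 of 43 genes below 0, and no member was called in either group. The share of all genes called lower and higher was 0.392% and 1.27% after IL-1α, and 0.291% and 0.669% after saline. At an unadjusted p under 0.05 there were 25 and 22 members, all lower (share of all genes not counted). An adjusted p of at most 0.05 with less than 2-fold change was reached by 11 and 5. By adjusted p alone 3.43% and 1.84% of all genes were lower. Creld2 was lowest, with 320.0, 323 and 366 after IL-1α and 351, 286 and 398 after saline (-0.73 ± 0.25 and -0.70 ± 0.25, adjusted p = 0.0793 and 0.112). Hspa5 had 4790.2, 5338 and 6028 and 6183, 5143 and 5363 (-0.61 ± 0.14 and -0.56 ± 0.14, adjusted p = 0.0172 and 0.036). For both genes, each of the 6 late libraries lay below all day 0 libraries, and the IL-1α and saline ranges overlapped. In the direct comparison of IL-1α with saline at day 14 limma called no member and 0% of all genes in either direction, and no member reached an unadjusted p of 0.05. The members' differences there ran from -0.20 to 0.12. With saline glands as the control, limma called 14 members lower at day 1 and 0 at day 2, where 4.42% and 0.734% of all genes were. Creld2 and Calr were called higher at day 3 (1.501 and 1.11; 1.5% of all genes) and Creld2 at day 4 (1.13; 5.48%). Without day 3 replicate 1 the day 3 change of Creld2 was 1.01 and that of Calr 0.76, under 2-fold, so that 1 gene was called.

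Of the central factors of the stress response, Atf4 fell at day 1 with the members, while Xbp1 and Ddit3 were not called. Xbp1 had 8129, 6327 and 7232 at day 0, against 8780.5, 7791 and 7959 at day 1 and 4152, 3851 and 4548 at day 3, and was not called on either day (0.18 ± 0.09 and -0.78 ± 0.09, limma adjusted p = 0.123 and 3.03e-05). At day 1 it overlapped with day 0, and at day 3 all libraries lay below both. With totals scaling its day 1 change was 1.37, on a scale where 60.5% of all tested genes were called higher. Atf4, the factor translated after PERK acts, had 2416, 2268 and 2093 at day 0 compared with 952, 876 and 852 at day 1. It fell (-1.34 ± 0.09, limma adjusted p = 2.69e-10). With totals scaling it was not called lower (-0.15), but the median over all tested genes lay above 0 on that scale. At day 3 it stood at 1602, 1716 and 1727, still below day 0. Ddit3 (CHOP), a gene that ATF4 induces, was low throughout, with 19.3, 34.3 and 26 at day 0 compared with 63.6, 50.5 and 39.0 at day 1. All its day 1 libraries lay above day 0, with a change of 0.93 ± 0.22 (limma adjusted p = 0.00175) under 2-fold. With totals scaling it was called higher (2.07), as were 60.5% of all tested genes.

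Other ER genes, from lists that hold no member, were lower at day 1 in part. Of 26 further folding enzymes and chaperones tested, 10 were lower and 0 higher (median -0.61), led by Fkbp11, a prolyl isomerase (-2.60 ± 0.21), Agr2, a disulfide isomerase of mucous cells (-2.40 ± 0.14), and Ero1lb, an oxidase of disulfide isomerases (-1.82 ± 0.10). Of 17 degradation genes 4 were lower, led by Edem3 (-1.64 ± 0.14), Selenos (-1.42 ± 0.11) and Ube2j1 (-1.27 ± 0.10). Of 17 translocon and targeting genes 3 were lower, Serp1 (-1.53 ± 0.11), Tram1 (-1.23 ± 0.09) and Srprb (-1.14 ± 0.10). Of 12 oligosaccharyltransferase genes 2 were lower, Magt1 (-1.28 ± 0.09) and Rpn2 (-1.02 ± 0.08), and of 26 export genes 5 were, led by Sec16b (-1.93 ± 0.19), Lman1 (-1.45 ± 0.09) and Mcfd2 (-1.31 ± 0.08). None of these lists had a gene called higher. Of all tested genes 5.09% were lower and 11.3% higher. With totals scaling only 2 of these genes stayed lower (0.719% of all genes). On that scale 1 to 6 genes of each list were called higher, where 60.5% of all genes were. Among 19 stress signalling genes 3 were lower and 3 higher, with Chac1 at -3.12 ± 0.39, Stc2 at -2.40 ± 0.36 and Nupr1 at 1.502 ± 0.21.

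Markers of other cells moved on the same day. Of 8 acinar markers 4 were lower at day 1, with Pnliprp1 at -4.72 ± 0.27, Car6 at -2.22 ± 0.25 and Rab27b at -2.004 ± 0.13, beside a median of -1.03. Pigr, the receptor that carries IgA across the epithelium, had the opposite sign (0.32 ± 0.14, adjusted p = 0.0677). With totals scaling 2 acinar markers were lower and Pigr was higher (1.51), with a median of 0.15. On that scale 0.719% of all genes were lower and 60.5% higher. All 7 neutrophil markers were higher, among them S100a9 (9.44 ± 0.73), S100a8 (8.84 ± 0.73) and Cxcr2 (7.21 ± 0.61), and 5 of 7 macrophage markers, among them Cd68 (2.99 ± 0.32), Cd14 (2.52 ± 0.22) and Adgre1 (1.97 ± 0.21). Plasma cells also hold a large ER: of 7 tested markers 2 were lower at day 1, Jchain (-2.76 ± 0.95) and Irf4 (-1.63 ± 0.33). Sdc1, which epithelial cells also express, had a positive value (0.97 ± 0.18, adjusted p = 2.10e-04) under 2-fold. With totals scaling no plasma cell marker was lower and Sdc1 was higher (2.14). Their summed level was 738 to 6089 at day 0 and 221 to 1084 at day 1, and Tnfrsf17 was at 0 in 8 libraries and Fcrl5 in 19. Fibroblast, skeletal muscle and salivary markers had no gene called at day 1, although limma gave fibroblast markers 4 of 6 higher at day 5, when their sum was 17940 to 26880 against 4294 to 5051 at day 0. The part of these cell types in the members' changes was not tested.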

How the data were processed

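Total RNA of whole mouse lacrimal glands was sequenced in bulk, 1 library per mouse. Per the submitters' processing notes and the study's methods, reads were aligned to mm10 with STAR, counted per gene with RSEM and scaled with DESeq2 (versions are not given in the sources used here). The deposited table holds these signal values, estimated counts that the authors divided by a size factor per library. Each value was set against the geometric mean of its gene over all libraries. The median of these ratios in a library was 1.0084 to 1.0085 over 13325 genes above 0 in every library. At a tolerance of 0.01, 75.4% to 82.7% of low values were whole multiples of 1 read, so no count test was run. From these steps depth was estimated at 9.5 to 13.1 M counts per library (median 11), and this limits the precision of low values. Identifiers were named with GENCODE M21 (42462 of 43346).

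Genes at 10 or more in at least 2 of 23 libraries were tested (13762), with limma 3.58.1 in R 4.3.3 on log2(value + 1), a trended moderated variance, 1 coefficient per group and Benjamini-Hochberg adjustment; residual degrees of freedom were 14. Fold changes are on that scale, which understates changes of low genes. The fit was tested on simulated data. Replicates are separate mice. Same-numbered libraries did not deviate together, so no block was used. Alternatives were totals scaling, another pseudocount, filter, control or threshold, all 26 libraries and leaving out each library. Described genes were those of largest change per role at day 1 and at days 2 to 5 (up to 2 each), all sensors and transcription factors, Xbp1, Atf4, Ddit3 and up to 3 called genes per list at day 1; Hspa5, Pdia4, Syvn1 and others named beside them were chosen after their values were seen. Members and lists were chosen with earlier results of these data known. Promoters came from RefSeq, GRCm38.p6; figures were drawn with matplotlib 3.10.9.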

Additional observations from a re-analysis of the deposited data

Results flagged for a closer look

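Levels of the ER genes after IL-1α injection differed between days by direct tests in the same limma fit; from day 1 to day 7 the cytokine and the injection cannot be told apart. Between day 5 and day 1, 16 of the 43 genes were higher at day 5 at the adjusted p and fold limits given in the report (5.88% of all genes; 4 members with totals scaling), and all 43 differences were above 0, with a median of 0.86. Between day 2 and day 1, 3 genes (Derl3, Creld2 and Sdf2l1) were higher at day 2 (2.02% of all genes; 2 members with totals scaling), and 42 of 43 differences were above 0, with a median of 0.59. The acinar, neutrophil and macrophage markers given in the report changed over the same days, and their part in these differences was not tested.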

How the results depend on the processing

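The counts of members called depended most on the scaling. Against 24 genes lower at day 1, scaling to column totals gave 1 (also with all 26 libraries or without day 3 replicate 1), totals without the 10 most abundant genes gave 5, saline as the control gave 14 and the adjusted p alone gave 42. At day 2, 2 lower became 0 with either totals scaling or saline as the control and 29 by adjusted p alone, and 0 higher became 1 with totals scaling. At day 3, 0 higher became 8 with totals scaling (1 without day 3 replicate 1), 2 with saline as the control (1 without day 3 replicate 1) and 2 by adjusted p alone, which also gave 3 lower. At day 4, 0 higher became 2 with totals scaling and 1 with saline as the control, and 12 were lower by adjusted p alone. At day 5, 4 were higher with totals scaling and 20 lower by adjusted p alone. By adjusted p alone 11 were called at day 14, 5 after saline, 28 from day 1 to day 2 and 37 from day 1 to day 5; the report gives the share of all genes beside these counts. The 16 genes higher at day 5 than day 1 were 4 with totals scaling and 10 without the 10 most abundant genes. For totals without the 10 most abundant genes the share of all genes is not given. The counts of 5 and 10 with that scaling therefore only describe the members. Totals scaling turned the sign of 26 of 43 members at day 1, most in Pdia4 (0.91) and Eif2ak3. Among the genes described for the day these were, at day 1, Calr (0.22), Atf6 (0.19), Ern1 (0.75), Eif2ak3 (0.82), Creb3l1 (0.02) and Creb3l2 (0.09), and at day 2 Dnajb9 (0.19), P4hb (0.20), Herpud1 (0.22), Edem2 (0.22), Sec61b (0.10), Ssr4 (0.12), Spcs2 (0.15), Spcs3 (0.33), Sec24d (0.02), Eif2ak3 (0.43), Atf6 (0.50) and Creb3l2 (0.21). Without the 10 most abundant genes Ern1 (0.0) and Eif2ak3 (0.08) at day 1 lost their negative sign. The signs on each scale depend on its construction: totals scaling sets the median gene above 0, and the deposited scaling sets it close to 0. Which scaling is the better one was not tested.

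Leaving out 1 library at a time gave 22 to 26 genes lower at day 1, 0 to 3 lower at day 2, 0 to 1 higher at day 3, 2 to 5 higher at day 2 than day 1 and 14 to 18 higher at day 5 than day 1, and 0 in the other counts. With the mouse number as a replicate block the counts were 24 at day 1, 2 at day 2, 3 from day 1 to day 2, 16 from day 1 to day 5 and 0 elsewhere. The numbers gave no pairing: correlations of 45 same-numbered pairs ran from -0.25 to 0.25, and 7 of 18 libraries were closest to one of their own number. A pseudocount of 0.1, no filter, only the groups compared or all 26 libraries kept each count within 1.5 times. Settings that changed the scaling or control together with the libraries, or left out all of day 3, were chosen after seeing the data. Day 7 rested on 1 mouse, assumed to vary like the other groups.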
